A study of Mus musculus with 9 samples.

Results

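Solute carriers are membrane proteins that move amino acids, sugars, ions, metals, nucleosides and other small molecules across the plasma membrane and the membranes of organelles. They are numbered by family, and the members of a family usually share a class of substrate. The genes described here are those whose symbol in the deposited table begins with Slc or Slco and a family number, which gave 216 of the 13336 genes in the table. All 216 matched, by identifier and by symbol, a protein-coding gene of GENCODE M21 on mm10, in which 385 protein-coding genes have such a symbol, and the other genes are not analysed here. By family, and by gene where a family is mixed, the 216 were placed in 15 groups, of which 1 holds 4 genes named for a neighbour or partner of a transporter (Slc9a3r1, Slc9a3r2, Slc7a6os and Slc4a1ap). Membership was set by the symbols alone, so these 4 are counted in the totals with the carriers, and none of them was called.

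The series asks how cultured myoepithelial cells of mouse trachea respond to forced expression of Lef1, a transcription factor of the Wnt pathway. RNA was sequenced from 5 Lef1KI libraries, from mice labelled ACTA2 -CreERT2:Lef-1KI+/+ and sorted as GFP-, and from 4 WT libraries, from mice labelled ACTA2-CreERT2:ROSA-TG and sorted as GFP+. Each library is a pool of gland cells from 3 to 5 mice, so p-values measure the spread between pools. All mice, WT included, carried a tamoxifen-inducible Cre under the Acta2 promoter, which is active in myoepithelial and smooth muscle cells, and received tamoxifen on 5 days before harvest. All cells were grown to passage 1 with Y-27632 at 10 µM, and with DMH-1, A83-01 and CHIR 99021, inhibitors of BMP receptors, TGF-beta receptors and GSK3, each at 1 µM. Gate and genotype differ between the groups in the same way and cannot be told apart, and ages and sequencing batches were not stated in the labels.

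Levels are in TPM, a gene's length-corrected share of all transcripts, and differences are Lef1KI minus WT on the deposited log2(TPM + 1) scale, where changes of genes near 0 TPM look smaller than they are. A gene is said to have risen, fallen or changed at a limma adjusted p under 0.05 over all 13336 genes. Lef1 had 227 ± 79.8 TPM in Lef1KI pools (SD, n = 5) and 0.448 ± 0.0763 TPM in WT pools (SD, n = 4), with no overlap. Of 6 basal cell genes Ngfr fell, to 1.16 ± 0.700 TPM in Lef1KI pools, against 3.41 ± 1.01 TPM in WT pools, and Krt5, Krt14, Trp63, Itga6 and Pdpn did not pass and averaged over 100 TPM in each group. Of 8 markers of contractile myoepithelial cells 5 were in the table and moved in both directions. Mylk rose to 2.55 ± 0.747 TPM in Lef1KI pools, against 1.16 ± 0.411 TPM in WT pools, a call lost under both scalings given below, and Synm fell to 1.23 ± 0.423 TPM in Lef1KI pools, against 4.02 ± 1.16 TPM in WT pools. Acta2, Tagln and Myh11 did not pass, with 62.3 ± 31.2, 6.84 ± 2.34 and 0.742 ± 0.221 TPM in Lef1KI pools, against 129 ± 41.04, 4.95 ± 3.13 and 0.838 ± 0.865 TPM in WT pools. Markers of other cell types moved with the groups. Fibroblast genes rose in 8 of 10, their summed level lying between 1487 and 4191 TPM in Lef1KI libraries and between 392 and 1057 TPM in WT libraries. Of 9 endothelial genes 7 were in the table, and Cldn5 and Vwf were not among them. Of the 7, 6 rose, with sums of 19.8 to 58.0 TPM in Lef1KI pools and 3.15 to 5.92 TPM in WT pools. The defining endothelial genes Pecam1 and Cdh5 had 4.72 ± 2.83 and 9.004 ± 5.53 TPM in Lef1KI pools, against 0.480 ± 0.189 and 0.885 ± 0.608 TPM in WT pools. Of 6 luminal genes 5 were in the table, Elf3 fell to 29.3 ± 11.6 TPM in Lef1KI pools, against 94.6 ± 51.5 TPM in WT pools, and the list summed to 218 to 1177 TPM in Lef1KI pools and 431 to 788 TPM in WT pools. Of 8 leukocyte genes 4 were in the table, and Ptprc and Csf1r were not among them. Lyz2 and Coro1a rose. Coro1a had 0.544 ± 0.160 TPM in Lef1KI pools and 0.130 ± 0.0956 TPM in WT pools, and lost its call under both scalings. Cd68 and Itgb2 did not pass, with 93.7 ± 82.1 and 1.85 ± 1.37 TPM in Lef1KI pools, against 180 ± 60.9 and 0.938 ± 0.270 TPM in WT pools. The list, in which Cd68 was the most abundant gene, summed to 59.8 to 248 TPM in Lef1KI pools and 111 to 260.2 TPM in WT pools. The part these markers have in any difference below was not tested, and in sorted pools a change in the share of a cell type and a change of RNA per cell cannot be told apart.

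Of the 216 genes, the 4 that encode no carrier included, 17 rose, which is 7.87% where 6.73% of all genes rose, and 1 fell, which is 0.463% where 1.24% of all genes fell. The share that changed in either direction was 8.33%, against 7.97% over all genes. The median difference of the carriers was 0.10 and that of all genes 0.14, and 133 of the 216 (61.6%) had a positive difference, against 69.6% of all genes. The groups did not overlap for 24 carriers higher in Lef1KI (11.1%, against 10.0% of all genes) and for 1 lower (0.463%, against 1.89% of all genes). Together the carriers held 0.720 ± 0.0554% of all TPM in Lef1KI pools (n = 5) and 0.666 ± 0.0319% in WT (n = 4), and the ranges of the groups overlapped. Of the 198 that were not called, 170 had a 95% interval of the difference within 1 on the log2 scale and 65 within 0.5. The deposited table keeps genes whose mean is at least 3 SD in at least 1 group. Of the carriers 192 met this in both groups, 16 only in Lef1KI and 8 only in WT. The calls of Slc6a15 and Slco1a4 are among those that met it only in Lef1KI, a condition that favours a difference. Among genes that met it in both groups, 15 of 192 carriers rose and 1 fell. Of all 11639 such genes 657 rose and 116 fell.

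**Figure D1:**
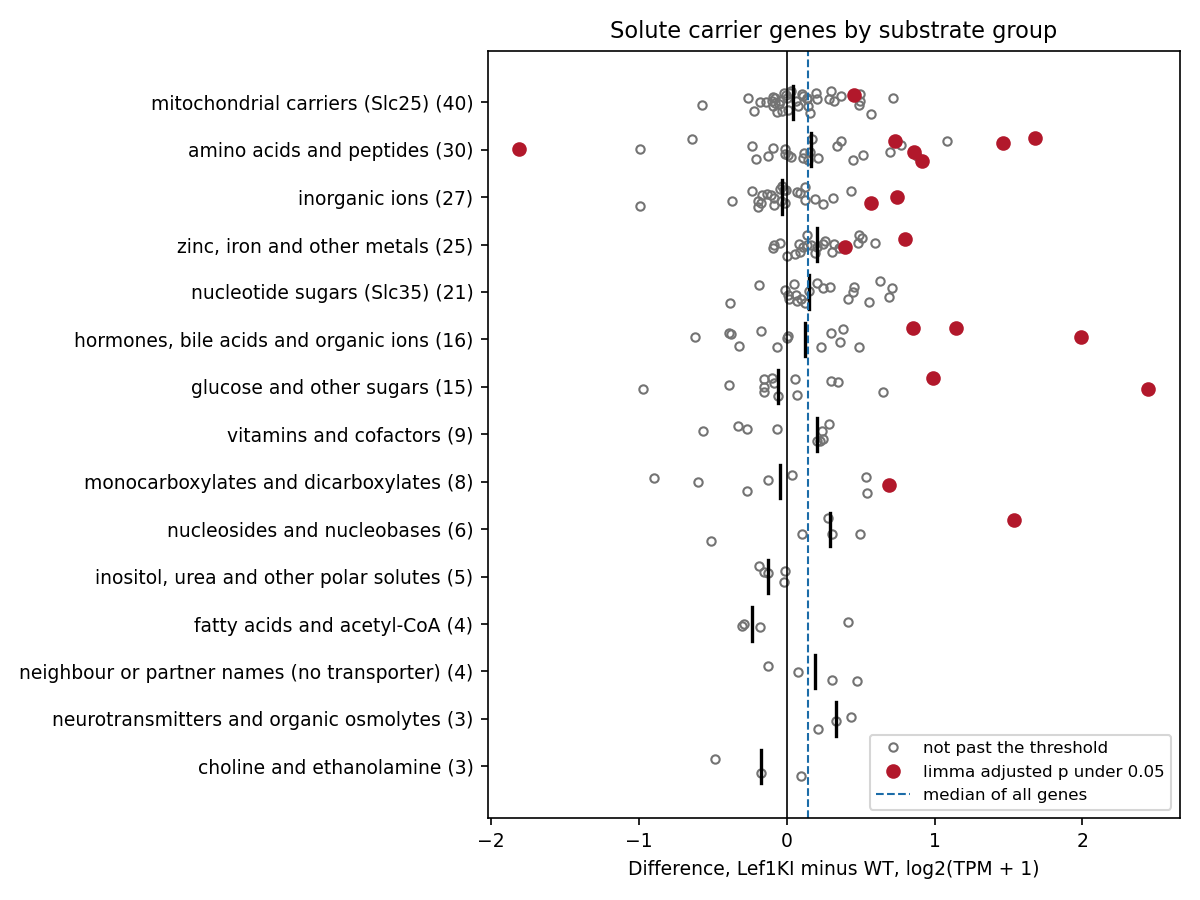
Each point is 1 of the 216 genes, placed by its difference (Lef1KI minus WT, log2(TPM + 1), horizontal axis) within its substrate group (rows, number of genes in parentheses, vertical jitter only for display). Filled points passed limma's threshold, black bars are group medians and the dashed line is the median of all genes (0.14). The filled points lie to the right of 0 for 17 genes and to the left for Slc6a14 alone.

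The balance of rises and falls depends on how the libraries are scaled. The median difference of all genes, 0.14 as deposited, became −0.02 with each library centred on its median and −0.01 with trimmed-mean scaling, and that of the carriers became −0.06 and −0.05. With median centring 10 carriers rose and 6 fell, and with trimmed-mean scaling 10 rose and 5 fell. Over all genes 4.54% rose and 2.49% fell with median centring, and 4.59% rose and 2.29% fell with trimmed-mean scaling. Either scaling shifts the difference of every gene by the same amount. That amount is smaller than any difference of the 18 carriers called as deposited, so none of these could change sign. Of the 18, 11 kept their call under median centring and 11 under trimmed-mean scaling. Those that lost it under both were Slc36a4, Slc9a9, Slc8a1, Slc25a12, Slc16a7, Slc39a7 and Slc39a14. The falls added under both were Slc1a1, Slc34a2 and Slco4a1, those added under median centring alone Slc5a6 and Slc5a8, and the one added under trimmed-mean scaling alone Slc25a1.

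**Figure D2:**
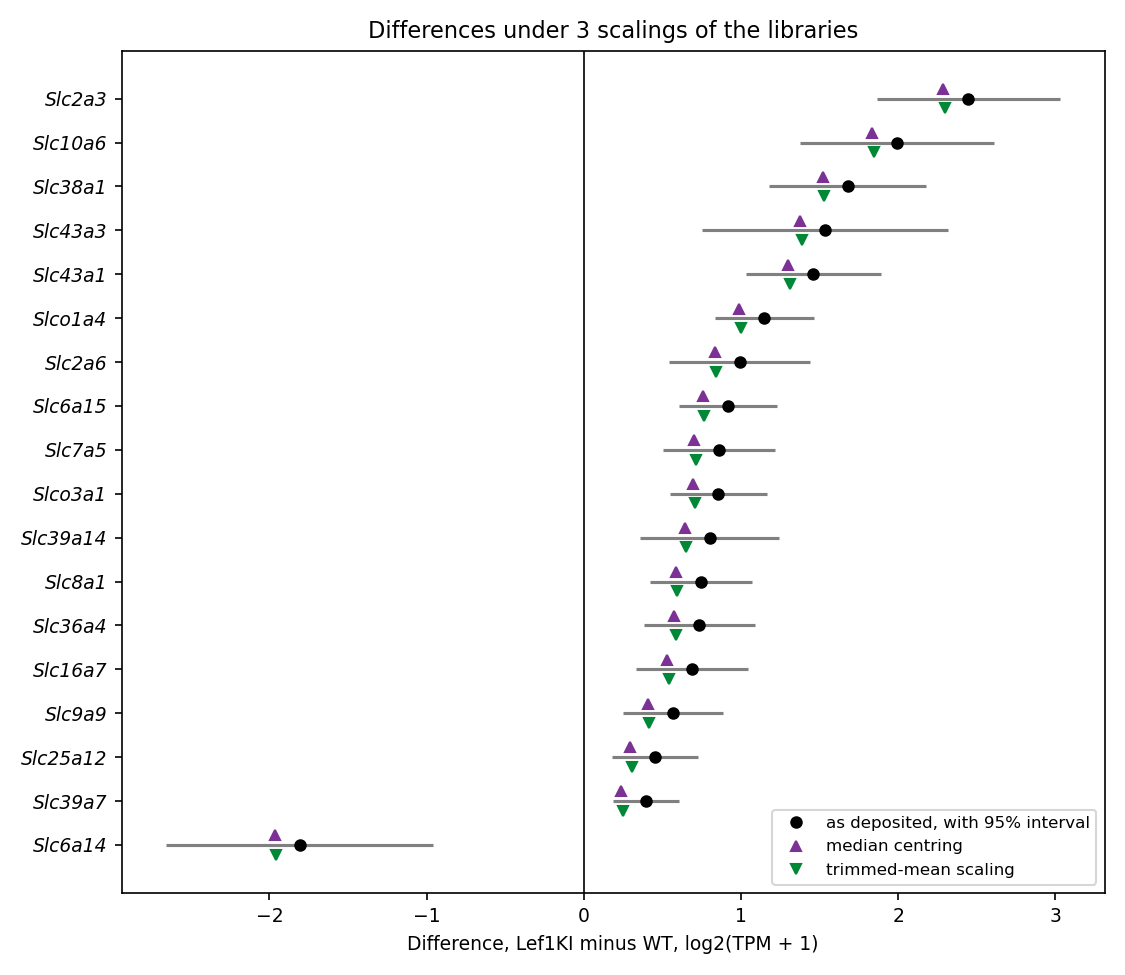
Differences (Lef1KI minus WT, log2(TPM + 1), horizontal axis) of the 18 carriers called as deposited (rows): black points with 95% limma intervals are the values as deposited, upward triangles median centring and downward triangles trimmed-mean scaling. Each scaling shifts all genes to the left by the same amount, so that the rises move toward 0. Slc6a14, the 1 fall, moves from −1.81 as deposited to −1.97 and −1.96.

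Sequence before the transcription start was examined because the Lef1 protein binds DNA through its HMG box at short sites. RefSeq promoter windows of GRCm38.p6, which is mm10, run from 250 bases before to 50 after a start, and they were found for 10 of the 18 called carriers and for 167 of all 216 (222 windows). The 2 TCF/LEF heptamers searched on both strands, ATCAAAG and AACAAAG, were in 3.73% and 5.85% of all 32851 windows, in 11 and 7 of the 222 carrier windows, and in 0 of the 10. Absence here says only that these letters are not in these windows. Of the other motifs, the AP-1 motif TGANTCA (7.81% of all windows) was in those of Slc6a14 and Slc9a9, the CHOP-ATF4 motif TGATGNAAN (3.95%) in that of Slc9a9, and the antioxidant response motif TGACNNNGC (12.4%) in that of Slc43a1. The windows of the 3 called carriers with the largest differences among the 10 are given 5′ to 3′ on the strand of the gene, with motif matches in capitals. They are at chr5:103629354-103629653 on the minus strand for Slc10a6, with no match, at chrX:21714650-21714949 on the plus strand for Slc6a14, with TGANTCA at bases 169 to 175, and at chr2:84840073-84840372 on the plus strand for Slc43a1, with the reverse complement of TGACNNNGC at bases 235 to 243. The start that RefSeq uses for Slc43a1 lies downstream of the start of the gene in GENCODE M21. In these windows no match overlapped another.
Slc10a6: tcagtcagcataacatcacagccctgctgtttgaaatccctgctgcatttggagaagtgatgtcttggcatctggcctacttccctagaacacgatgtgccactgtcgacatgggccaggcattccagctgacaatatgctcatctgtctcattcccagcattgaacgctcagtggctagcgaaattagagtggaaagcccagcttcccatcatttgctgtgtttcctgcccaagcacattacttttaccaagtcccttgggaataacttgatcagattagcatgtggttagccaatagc
Slc6a14: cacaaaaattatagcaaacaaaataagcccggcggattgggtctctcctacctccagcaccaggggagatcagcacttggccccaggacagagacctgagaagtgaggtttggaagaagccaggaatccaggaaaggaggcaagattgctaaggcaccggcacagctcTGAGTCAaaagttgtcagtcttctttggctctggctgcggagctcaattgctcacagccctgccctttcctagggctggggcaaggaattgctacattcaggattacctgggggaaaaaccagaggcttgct
Slc43a1: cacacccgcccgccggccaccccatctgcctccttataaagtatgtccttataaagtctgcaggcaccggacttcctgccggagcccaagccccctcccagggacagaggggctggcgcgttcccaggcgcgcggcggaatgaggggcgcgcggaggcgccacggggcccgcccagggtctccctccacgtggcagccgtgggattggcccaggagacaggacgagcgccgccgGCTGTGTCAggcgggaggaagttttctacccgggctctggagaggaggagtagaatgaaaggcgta

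Of 30 amino acid carriers 5 rose, namely Slc7a5, Slc38a1, Slc43a1, Slc36a4 and Slc6a15, and Slc6a14 fell, where 6.73% of all genes rose and 1.24% fell. The median difference of the group was 0.16. Slc7a5 and Slc3a2 encode the light and heavy chains of the exchanger that brings leucine and other large neutral amino acids into the cell. Slc7a5 (ENSMUSG00000040010, chromosome 8 from 121881150 to 121907694, minus strand) had 437, 537, 633, 386 and 547 TPM in Lef1KI A to E, against 243, 249, 346 and 272 TPM in WT A, B, E and D. Every Lef1KI library lay above every WT library (log2 difference 0.86, SE 0.16, limma adjusted p 0.00823, called in all 9 fits that left out a library). Slc3a2, the second most abundant of all 216, had 754, 725, 655, 517 and 638 TPM in Lef1KI A to E, against 696, 638, 729 and 516 TPM in WT A, B, E and D. Its groups overlapped throughout, and the difference of 0.03 had a 95% interval of −0.28 to 0.34 (limma adjusted p 0.916). The ratio of Slc7a5 to Slc3a2 lay between 0.580 and 0.966 in Lef1KI and between 0.350 and 0.527 in WT, without overlap. The summed level of the light chain genes measured here that pair with Slc3a2 (Slc7a5, Slc7a6, Slc7a7, Slc7a8 and Slc7a11) was 569 ± 116 TPM in Lef1KI pools (n = 5) and 316 ± 46.4 TPM in WT pools (n = 4). Slc7a5 made up most of that sum, and of the others none passed the threshold, although Slc7a7 passed without Lef1KI B or WT A (0.91 and 0.93). Slc7a11, the cystine-glutamate exchanger, had 17.9, 39.5, 56.2, 13.02 and 34.6 TPM in Lef1KI A to E, against 9.18, 16.1, 13.7 and 13.4 TPM in WT A, B, E and D, with overlap. Its difference of 1.08 (95% interval 0.26 to 1.90, limma adjusted p 0.108) was the largest among the carriers that were not called, and it passed without Lef1KI D (1.35, limma adjusted p 0.0334).

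**Figure D3:**
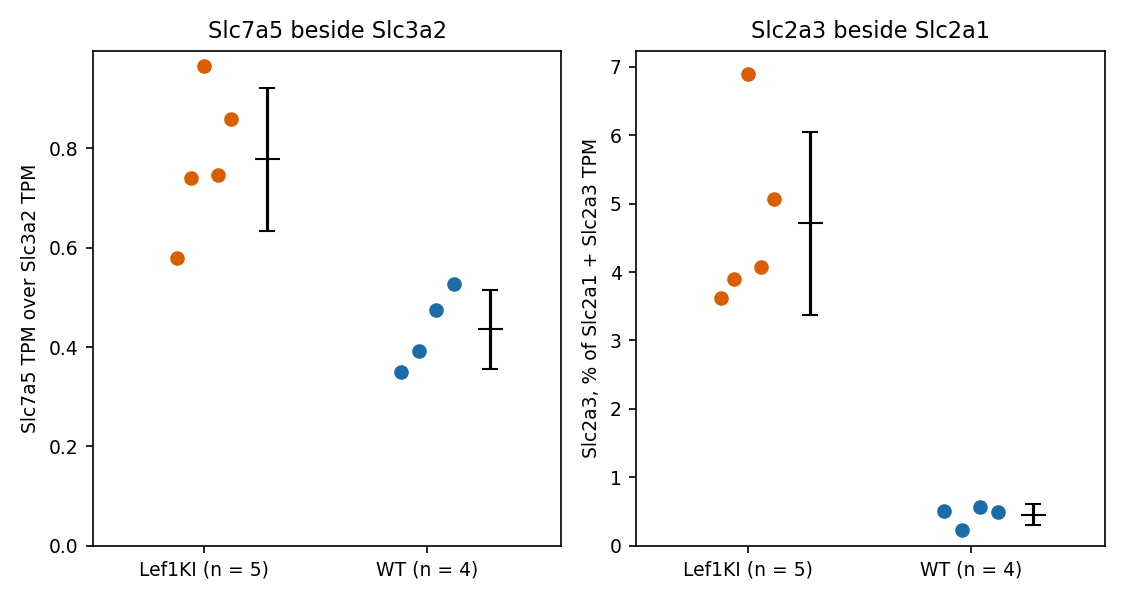
Left, the TPM of Slc7a5 divided by the TPM of Slc3a2 in each library; right, the TPM of Slc2a3 as a percentage of Slc2a1 plus Slc2a3. Points are libraries, with bars for the mean ± SD of 5 Lef1KI and 4 WT libraries, and the groups do not overlap in either panel.

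Sodium-coupled and other amino acid carriers moved in both directions. Slc38a1, a sodium-coupled glutamine carrier, had 11.1, 17.3, 21.7, 12.2 and 20.6 TPM in Lef1KI A to E, against 3.30, 4.49, 4.14 and 5.59 TPM in WT A, B, E and D. The groups lay well apart (log2 difference 1.68, SE 0.23, limma adjusted p 0.00167). Its close relative Slc38a2 had 186 TPM in Lef1KI pools and 195 TPM in WT pools on average (log2 difference −0.01). Slc43a1, a facilitative carrier of large neutral amino acids, had 3.22, 2.59, 4.13, 4.64 and 1.91 TPM in Lef1KI A to E, against 0.27, 0.67, 0.60 and 0.57 TPM in WT A, B, E and D. It is a gene of low level in both groups that rose without overlap (log2 difference 1.46, SE 0.19, limma adjusted p 0.00161). Slc36a4, a carrier of proline and tryptophan, had 9.004 ± 1.39 TPM in Lef1KI pools and 4.99 ± 0.619 TPM in WT pools (log2 difference 0.73, limma adjusted p 0.0179), which missed the threshold without WT E (0.69, limma adjusted p 0.0677). Slc6a15, a sodium-coupled carrier of branched-chain amino acids and proline, had 0.78, 1.71, 0.57, 0.78 and 0.98 TPM in Lef1KI A to E. In WT A and E it was listed at 0, and WT B and D had 0.06 and 0.03 TPM (log2 difference 0.92, SE 0.14, limma adjusted p 0.00316). Slc6a15 passed the filter of the deposited table only through Lef1KI, which favours a difference. Slc6a14, which takes up neutral and cationic amino acids, was the 1 carrier that fell. It had 2.87, 1.04, 1.41, 2.07 and 3.36 TPM in Lef1KI A to E, against 5.57, 5.22, 12.9 and 21.3 TPM in WT A, B, E and D. All Lef1KI libraries lay below all WT libraries, although the WT values spread widely (log2 difference −1.81, SE 0.38, limma adjusted p 0.0158), and the call was lost without WT E (−1.68, limma adjusted p 0.0564). The glutamate carrier gene Slc1a1 had 6.59 ± 2.76 TPM in Lef1KI pools and 14.1 ± 5.10 TPM in WT pools (log2 difference −0.99, limma adjusted p 0.071). It passed without Lef1KI A, Lef1KI E or WT B (−1.09, −1.16 and −1.21).

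**Figure D4:**
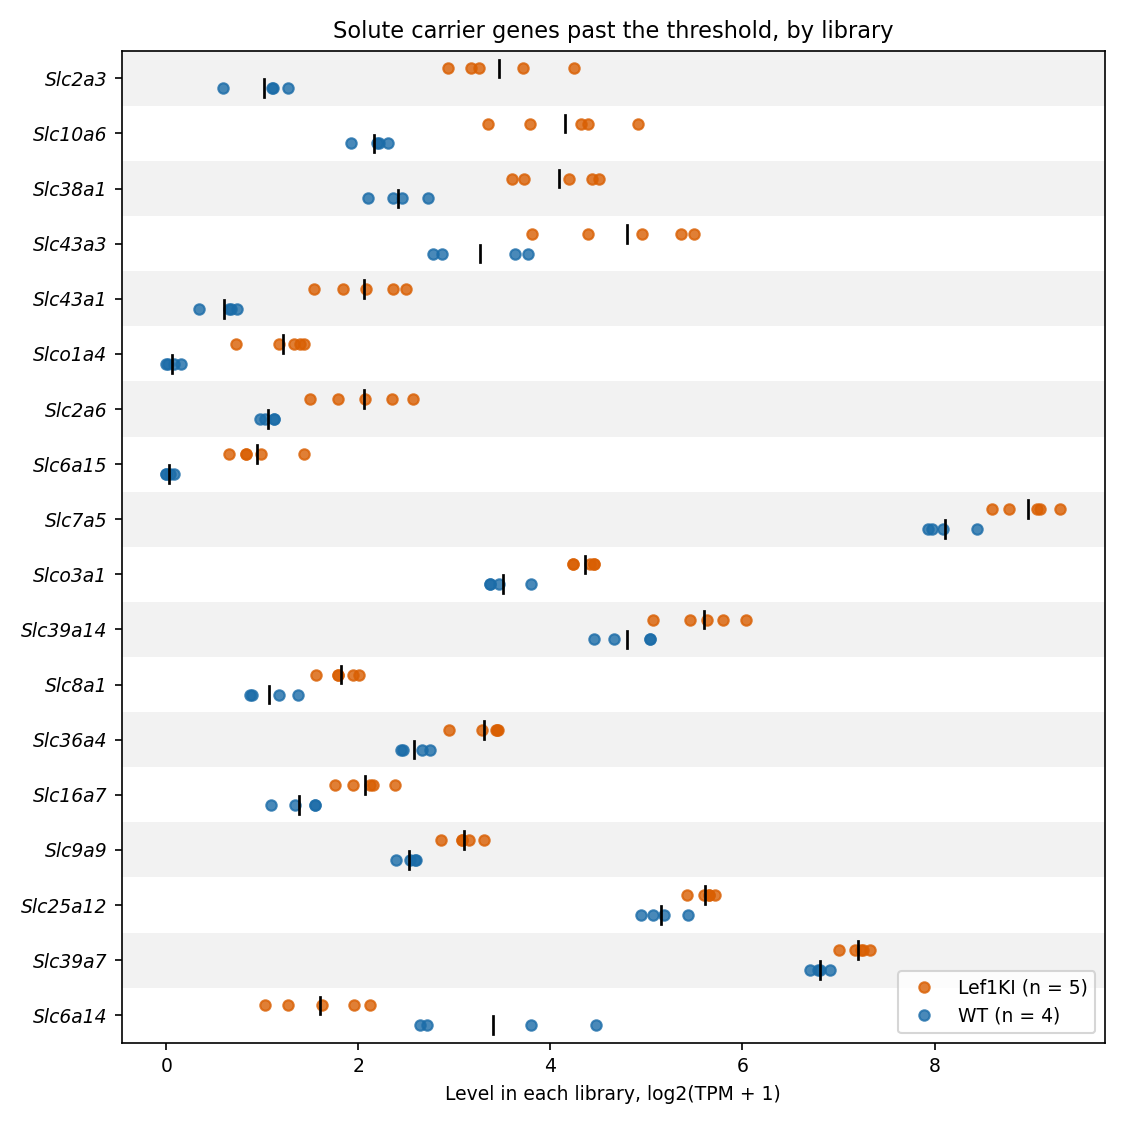
Level in every library (horizontal axis, log2(TPM + 1)) of the 18 carriers that passed limma's threshold, ordered by difference, with 5 Lef1KI points in the upper line and 4 WT points in the lower line of each row and black bars at the group means. Only Slc25a12 has overlapping groups, since WT A (42.0 TPM) lies above Lef1KI B (41.8 TPM).

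Of 15 carriers of sugars Slc2a3 and Slc2a6 rose, 2 genes where 6.73% of all genes did, and neither is the most abundant one. Slc2a1, the widespread glucose carrier, had 213, 210.0, 242, 156 and 226 TPM in Lef1KI A to E, against 223, 223, 247 and 231 TPM in WT A, B, E and D. These ranges overlapped, and the difference was −0.15 with a 95% interval of −0.43 to 0.12 (limma adjusted p 0.473). Slc2a3, a glucose carrier of high affinity best known from neurons (ENSMUSG00000003153, chromosome 6 from 122727809 to 122801640, minus strand), had 8.01, 8.53, 17.96, 6.63 and 12.1 TPM in Lef1KI A to E. The WT values, for A, B, E and D in turn, were 1.15, 0.50, 1.40 and 1.16 TPM. Its difference was the largest of all carriers (log2 difference 2.45, SE 0.26, limma adjusted p 0.000656), with no overlap and a call in all 9 fits that left out a library. Slc2a3 still made up only 4.71 ± 1.34% of the 2 genes' summed TPM in Lef1KI pools (n = 5), against 0.4501 ± 0.154% in WT (n = 4). Slc2a6, a lysosomal member of the family, had 4.10, 2.45, 4.94, 1.82 and 3.20 TPM in Lef1KI A to E, against 1.18, 1.04, 1.18 and 0.96 TPM in WT A, B, E and D. It too rose without overlap (log2 difference 0.99, SE 0.20, limma adjusted p 0.0132). The median of the group was −0.06, and Slc50a1, the second in level, had 56.1 ± 9.75 TPM in Lef1KI pools and 61.9 ± 4.02 TPM in WT pools (limma adjusted p 0.491). Slc37a1, a carrier of sugar phosphates, had 1.74 ± 0.857 TPM in Lef1KI pools and 5.34 ± 4.07 TPM in WT pools (log2 difference −0.97, limma adjusted p 0.219), and it passed without WT A (−1.48, limma adjusted p 0.0218), whose 0.81 TPM was the lowest of all libraries.

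Of 16 carriers of organic anions, hormones and bile acids 3 rose, where 6.73% of all genes did. Slc10a6, a carrier of sulfated steroids whose promoter is printed above (ENSMUSG00000029321, chromosome 5 from 103605711 to 103629403, minus strand), had 19.97, 12.8, 29.1, 18.95 and 9.22 TPM in Lef1KI A to E. The WT values, for A, B, E and D in turn, were 3.95, 3.59, 2.79 and 3.63 TPM, so that the WT libraries were tight and all below Lef1KI (log2 difference 1.99, SE 0.28, limma adjusted p 0.00204). Slco1a4, an organic anion carrier known in mouse from liver and brain endothelium, had 1.25, 0.65, 1.51, 1.71 and 1.63 TPM in Lef1KI A to E. In WT it was listed at 0 in library A and had 0.01, 0.06 and 0.11 TPM in B, E and D (log2 difference 1.15, SE 0.14, limma adjusted p 0.00115). Its paralog Slco1a5, with which it could share reads, had 0.434 TPM in Lef1KI pools and 0.415 TPM in WT pools on average. Slco3a1, another organic anion carrier, had 19.5 ± 1.603 TPM in Lef1KI pools and 10.4 ± 1.69 TPM in WT pools (log2 difference 0.86, limma adjusted p 0.00419). The prostaglandin carrier gene Slco2a1, the highest of the group, had 9.79, 10.0, 14.9, 10.1 and 14.0 TPM in Lef1KI A to E, against 7.85, 26.02, 16.7 and 32.1 TPM in WT A, B, E and D. WT A lay below every Lef1KI library and the other WT libraries above them (log2 difference −0.62, limma adjusted p 0.286, and −0.998 without WT A, limma adjusted p 0.0296). Slc22a23 showed the same arrangement, with 13.7 ± 1.75 TPM in Lef1KI pools and 18.5 ± 6.89 TPM in WT pools (log2 difference −0.32, and −0.64 without WT A, limma adjusted p 0.0258). Slco1a4 passed the filter of the deposited table only through Lef1KI. Of the 7 endothelial markers given above 6 rose, and Tek did not pass, with 0.238 TPM in Lef1KI pools and 0.220 TPM in WT pools on average. Fibroblast genes rose in 8 of 10, and the part of either cell type in the Slco1a4 difference was not tested.

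Of 27 inorganic ion carriers 2 rose, where 6.73% of all genes did, and the group's median was −0.03. Slc8a1, the sodium-calcium exchanger of the plasma membrane, had 2.55 ± 0.421 TPM in Lef1KI pools and 1.13 ± 0.358 TPM in WT pools (log2 difference 0.74, limma adjusted p 0.011, called in all 9 fits that left out a library). Under both scalings Slc8a1 lost its call. Slc9a9, a sodium-proton exchanger of endosomes, had 7.59 ± 0.957 TPM in Lef1KI pools and 4.78 ± 0.385 TPM in WT pools (log2 difference 0.57, limma adjusted p 0.0357). That call held only without Lef1KI A or Lef1KI E (0.57 and 0.63), and the other 7 fits gave 0.51 to 0.59. Slc20a1, a phosphate carrier and the highest of the group, had 244, 114, 141, 80.0 and 141 TPM in Lef1KI A to E, against 87.9, 172, 215 and 165 TPM in WT A, B, E and D. Its libraries spread over a wide range in both groups, and the difference of −0.17 had a 95% interval of −0.87 to 0.52 (limma adjusted p 0.757). Slc12a4, a potassium-chloride cotransporter, had 57.2 ± 8.77 TPM in Lef1KI pools and 58.4 ± 8.07 TPM in WT pools (limma adjusted p 0.902). Slc34a2, the phosphate carrier known from lung surfaces, was low, with 0.650 ± 0.161 TPM in Lef1KI pools and 2.69 ± 1.91 TPM in WT pools. Its difference of −0.996 was not called (limma adjusted p 0.0888) but was called without WT A (−1.36, limma adjusted p 0.00801).

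Carriers of zinc and other metals had mostly positive differences, 21 of 25, with a median of 0.21, where 69.6% of all genes were positive with a median of 0.14. Of the 25 genes 2 rose, where 6.73% of all genes did. Slc39a7, which releases zinc from the endoplasmic reticulum and the Golgi, and Slc39a14, which imports zinc, iron and manganese, were the genes that rose. Slc39a7, the highest of the group, had 150.03, 128, 160, 143 and 151 TPM in Lef1KI A to E, against 110, 103, 119 and 111 TPM in WT A, B, E and D. The groups were narrow and did not overlap, although the difference was small (log2 difference 0.40, SE 0.10, limma adjusted p 0.0294). The call was lost without Lef1KI C or D (0.36 and 0.40) and without WT B, E or D (0.36, 0.43 and 0.40). Slc39a14 had 48.7 ± 12.1 TPM in Lef1KI pools and 27.2 ± 5.46 TPM in WT pools (log2 difference 0.80, limma adjusted p 0.035). It kept its call without Lef1KI A, Lef1KI E or WT D (0.75, 0.93 and 0.88), and the other 6 fits, without Lef1KI B, C or D and without WT A, B or E, gave 0.84, 0.69, 0.79, 0.69, 0.88 and 0.76. The heme carrier gene Slc48a1 had 101 ± 15.2 TPM in Lef1KI pools and 104 ± 13.4 TPM in WT pools. Summed over the group, metal carriers had 747 ± 61.9 TPM in Lef1KI pools (n = 5) and 613 ± 53.5 TPM in WT pools (n = 4), with ranges of 692 to 841 and 540 to 657 TPM that did not overlap. These sums are as deposited and were not rescaled, and Slc39a7 and Slc39a14 lost their calls under both scalings. Summed nucleoside and nucleobase carriers did not overlap either, with 71.5 to 104 TPM in Lef1KI pools and 48.2 to 62.9 TPM in WT pools. This sum includes Slc43a3, the only 1 of its 6 genes that was called.

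Of 6 genes for carriers of nucleosides and nucleobases 1 rose, Slc43a3, where 6.73% of all genes did. This purine nucleobase carrier (ENSMUSG00000027074, chromosome 2 from 84936579 to 84958509, plus strand) had 29.96, 19.9, 43.9, 39.9 and 13.01 TPM in Lef1KI A to E, against 5.87, 6.33, 12.6 and 11.4 TPM in WT A, B, E and D. The lowest Lef1KI library, E, was close to the highest WT library, E (log2 difference 1.54, SE 0.35, limma adjusted p 0.0235). Without Lef1KI C, Lef1KI D, WT A or WT B the difference was 1.36, 1.40, 1.38 and 1.41 and missed the threshold. Slc43a3 belongs to the same family as Slc43a1 and is its near neighbour on chromosome 2, where Slc43a1 lies from 84838850 to 84863594. Slc29a1, the equilibrative nucleoside carrier, had 29.7, 33.0, 39.3, 38.3 and 40.02 TPM in Lef1KI A to E, against 39.9, 27.8, 25.5 and 25.99 TPM in WT A, B, E and D. WT A lay among the highest Lef1KI libraries (log2 difference 0.28, 95% interval −0.07 to 0.63, limma adjusted p 0.3).

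Of 8 carriers of monocarboxylates and dicarboxylates 1 rose, where 6.73% of all genes did. Slc16a7, which takes up pyruvate and lactate, rose to 3.25 ± 0.692 TPM in Lef1KI pools, against 1.63 ± 0.380 TPM in WT pools (log2 difference 0.69, limma adjusted p 0.0252). Its call was lost without Lef1KI B or C (0.61 and 0.67) or WT E or D (0.59 and 0.67). The more abundant Slc16a1 had 44.0, 44.6, 52.5, 40.1 and 55.8 TPM in Lef1KI A to E, against 46.5, 47.04, 58.0 and 54.96 TPM in WT A, B, E and D. Its groups overlapped (log2 difference −0.12, 95% interval −0.41 to 0.16). Slc16a3, the lactate exporter of glycolytic cells, divided the Lef1KI libraries, with 47.5, 76.3 and 85.0 TPM in B, C and E and 12.8 and 15.1 TPM in A and D, against 35.3, 18.8, 27.7 and 19.7 TPM in WT A, B, E and D. Its difference of 0.54 had a 95% interval of −0.65 to 1.73 (limma adjusted p 0.555). Slc5a8, a sodium-coupled monocarboxylate carrier, had 0.992 ± 0.223 TPM in Lef1KI pools and 3.08 ± 1.83 TPM in WT pools (log2 difference −0.90, limma adjusted p 0.111, and −1.28 without WT A, limma adjusted p 0.00354).

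Mitochondrial carriers, the largest group and among the most abundant, gave 1 call in 40, where 7.97% of all genes were called, with a median difference of 0.05. Slc25a12, the aspartate-glutamate carrier of the malate-aspartate shuttle, had 47.9 ± 3.69 TPM in Lef1KI pools and 34.9 ± 5.25 TPM in WT pools (log2 difference 0.45, limma adjusted p 0.0477). Among 9 fits with 1 library removed only that without WT A kept the call (0.54), and the others gave 0.38 to 0.50. Slc25a5, an exchanger of ADP and ATP and the most abundant of all 216 carriers, had 547, 670, 739, 584 and 910 TPM in Lef1KI A to E, against 785, 661, 586 and 639 TPM in WT A, B, E and D. Its groups overlapped, and the difference was 0.03 with a 95% interval of −0.31 to 0.37 (limma adjusted p 0.919). Slc25a3, the mitochondrial phosphate carrier, had 367 ± 51.5 TPM in Lef1KI pools and 378 ± 25.3 TPM in WT pools (95% interval of the difference −0.31 to 0.21). Over the whole group the summed level was 2308 ± 264 TPM in Lef1KI pools (n = 5) and 2307 ± 153 TPM in WT pools (n = 4).

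The other groups held no called gene. Many, though not all, members of the Slc35 family bring nucleotide sugars into the Golgi and the endoplasmic reticulum. Of 21 members of this family limma called 0, and 6 had an unadjusted p under 0.05, where 3169 of all 13336 genes did. Without an intensity trend limma called Slc35d1 and Slc35e3 (0.63 and 0.46). Positive differences were found for 18 of the 21, with a median of 0.15, where 69.6% of all genes were positive with a median of 0.14. Slc35b1, the highest in this family, had 105, 96.7, 85.3, 81.1 and 75.4 TPM in Lef1KI A to E, against 77.8, 84.7, 89.4 and 97.5 TPM in WT A, B, E and D. The groups covered the same range (log2 difference 0.02, 95% interval −0.25 to 0.28, and −0.14 under median centring). Slc35a4 had 77.0 ± 17.4 TPM in Lef1KI pools and 50.9 ± 3.93 TPM in WT pools (log2 difference 0.55, limma adjusted p 0.0877). It was called without Lef1KI A (0.72, limma adjusted p 0.00416), where it had 47.6 TPM, against 78.5 to 93.7 TPM in the other Lef1KI libraries. Of 9 vitamin and cofactor carriers limma called 0 and 2 had an unadjusted p under 0.05, again beside 3169 of all 13336 genes. The folate carrier gene Slc19a1 had 19.6, 25.2, 31.6, 25.8 and 38.1 TPM in Lef1KI A to E, against 20.03, 21.2, 23.4 and 24.95 TPM in WT A, B, E and D, with overlap (limma adjusted p 0.353). Slc19a2, a thiamine carrier, had 24.6 ± 2.48 TPM in Lef1KI pools and 20.9 ± 1.15 TPM in WT pools (limma adjusted p 0.273).

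Small groups were likewise without a call by limma, with or without an intensity trend. Of 5 carriers of inositol, creatine, taurine and urea, none had an unadjusted p under 0.05, where 3169 of all 13336 genes did. The creatine carrier gene Slc6a8 had 117, 92.6, 72.8, 108 and 64.7 TPM in Lef1KI A to E, against 75.2, 93.0, 117 and 117 TPM in WT A, B, E and D. These values overlapped (95% interval of the difference −0.59 to 0.28), as did those of the taurine carrier gene Slc6a6, with 19.8 ± 1.75 TPM in Lef1KI pools and 22.6 ± 7.002 TPM in WT pools. Of 4 carriers of fatty acids and acetyl-CoA, 1 had an unadjusted p under 0.05, Slc33a1, which moves acetyl-CoA into the endoplasmic reticulum. It had 17.3, 21.6, 23.7, 21.4 and 19.9 TPM in Lef1KI A to E, against 12.7, 14.8, 15.4 and 18.6 TPM in WT A, B, E and D (log2 difference 0.42, limma adjusted p 0.113). Slc27a4, a fatty acid transport protein, had 10.1 ± 1.90 TPM in Lef1KI pools and 13.8 ± 6.72 TPM in WT pools. Of 3 choline carriers none had an unadjusted p under 0.05. Slc44a1 had 35.9, 33.7, 28.6, 35.7 and 25.02 TPM in Lef1KI A to E, against 29.5, 28.6, 28.4 and 31.01 TPM in WT A, B, E and D (95% interval of the difference −0.19 to 0.39), and Slc44a2 had 25.9 ± 4.06 TPM in Lef1KI pools and 29.3 ± 4.28 TPM in WT pools. The 3 vesicular carriers were low and none had an unadjusted p under 0.05. The highest, Slc18b1, a vesicular polyamine carrier, had 9.54, 4.67, 5.16, 9.90 and 4.62 TPM in Lef1KI A to E, against 4.41, 5.96, 4.94 and 4.44 TPM in WT A, B, E and D, with Lef1KI A and D apart from the rest. Slc18a2, the vesicular monoamine carrier, had 0.722 ± 0.268 TPM in Lef1KI pools and 0.475 ± 0.126 TPM in WT pools. Of the 4 genes that encode no carrier, 1 had an unadjusted p under 0.05. Slc9a3r1, a scaffold protein that anchors membrane transporters, had 94.0, 69.9, 86.0, 80.8 and 93.8 TPM in Lef1KI A to E, against 61.7, 89.6, 114 and 115 TPM in WT A, B, E and D, and Slc7a6os had 21.0 ± 4.24 TPM in Lef1KI pools and 16.6 ± 2.31 TPM in WT pools.

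Genes that work with these carriers were read from the same fit. Of 78 genes in 10 lists 73 were in the table, and 6 rose and 1 fell, where 6.73% and 1.24% of all genes did. Emb, a chaperone of the monocarboxylate carriers, had 75.2 ± 11.9 TPM in Lef1KI pools and 44.1 ± 6.97 TPM in WT pools (log2 difference 0.76, limma adjusted p 0.0105). Its call was lost under both scalings (0.60 and 0.61), and the other chaperone, Bsg, had 593 ± 48.4 TPM in Lef1KI pools and 605 ± 62.2 TPM in WT pools. In iron handling 2 of 9 rose. The metalloreductase gene Steap4 had 153 ± 42.7 TPM in Lef1KI pools and 42.9 ± 1.49 TPM in WT pools (log2 difference 1.76), and ceruloplasmin, the ferroxidase gene Cp, had 417 ± 154 TPM in Lef1KI pools and 113 ± 39.7 TPM in WT pools (1.86). The zinc and copper list gave 0 calls in 7 by limma, with or without an intensity trend, and 1 gene with an unadjusted p under 0.05. The zinc-binding metallothionein genes Mt1 and Mt2 had 2659 ± 653 and 3687 ± 373 TPM in Lef1KI pools, against 2860 ± 578 and 3365 ± 388 TPM in WT pools. In the amino acid response 2 of 14 rose, the transcription factor genes Atf3 (log2 difference 0.72) and Cebpb (0.60). In this list 6 genes had an unadjusted p under 0.05, where 3169 of all 13336 genes did. The median difference of the list was 0.51, and that of all genes 0.14. Its largest differences in each direction, of Psat1 (0.79) and Ddit3 (−0.79), did not pass (limma adjusted p 0.0532 and 0.296). Cebpb lost its call under both scalings (0.44 and 0.45) and without Lef1KI C (0.56), WT B (0.57), WT E (0.64) or WT D (0.55). Atf4, the regulator of this response, had 502 ± 126 TPM in Lef1KI pools and 392 ± 54.1 TPM in WT pools, and Asns, the asparagine synthetase gene it regulates, had 323 ± 52.3 TPM in Lef1KI pools and 263 ± 18.6 TPM in WT pools (limma adjusted p 0.291 and 0.215). Among 10 genes of nucleoside handling Entpd1, which degrades extracellular ATP, rose (log2 difference 1.20), a call lost without WT B (1.09). Among 10 ion transport partners the carbonic anhydrase gene Car2 fell to 1.86 ± 0.459 TPM in Lef1KI pools, against 5.21 ± 1.56 TPM in WT pools (log2 difference −1.10, limma adjusted p 0.00606). Of these 10 partners 4 had an unadjusted p under 0.05, and their median difference was −0.35. An unadjusted p under 0.05 was also found for 4 of 9 iron handling genes (median 0.25) and 3 of 10 nucleoside handling genes (median 0.33). These counts too stand beside 3169 of all 13336 genes, whose median was 0.14. Lists of glucose use (8 measured), of mitochondrial calcium and anion channels (6), of phosphate and lysosomal sensing (5) and of the mitochondrial pyruvate carrier (2) held no call by limma, with or without an intensity trend, and 1, 0, 0 and 0 genes with an unadjusted p under 0.05.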

How the data were processed

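RNA from 9 pools of cultured tracheal gland cells, 5 Lef1KI and 4 WT, was sequenced with a stranded mRNA library kit, per the labels' protocols. RSEM and the mm10 build are named in the submitters' processing notes, whereas no source used here gives the aligner, the annotation release or whether counting used strand. The values deposited by the authors are log2(TPM + 1): 100% of values under 50 TPM, taken back from the log2 scale, were whole hundredths to within 0.01 of a hundredth. Each library summed to between 996010 and 998388 TPM over the genes kept, so the depth in reads is unknown, and no interval that needs it is given. Every gene in the table had a mean of at least 3 SD in at least 1 group. No 2 libraries were copies of each other.

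Differences were fitted with limma 3.58.1 (R 4.3.3) on the values as deposited, with an intensity trend, no filter and no covariate, over 13336 genes in all 9 libraries, and adjusted by Benjamini-Hochberg over all of them. The script was tested on simulated data. Alternatives were median centring, trimmed-mean scaling (30% off each end), a pseudocount of 0.1 TPM, a mean of at least 1 TPM in a group, no intensity trend and leaving out each library. A mean of at least 3 SD in both groups and a block on the letter of the deposited columns were added after seeing the data. The carriers and lists were chosen with earlier results of these data known. Genes named are the called carriers, the 2 most abundant of each substrate group, the 5 largest differences not called and called linked genes, and any others were named after their values were seen. Gene positions are those of GENCODE M21 on mm10, and promoter sequences are from RefSeq, GRCm38.p6. Of the 18 called carriers 8 overlap no other annotated gene. Slc6a14, Slc2a3, Slc39a7 and Slc9a9 overlap one on the same strand, and Slc7a5, Slc10a6, Slco3a1, Slc8a1, Slc9a9, Slc25a12 and Slc16a7 one on the other strand, and reads shared between such genes could not be separated here.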

Additional observations from a re-analysis of the deposited data

Results flagged for a closer look

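Among 116 sets of library values examined, 7 had 1 library set apart from the others by Dixon's criterion, where chance gives about 1 in 20. Slc12a4 was set apart in both groups, with 72.68 TPM in Lef1KI A against 50.87 to 54.58 TPM in the other Lef1KI libraries, and with 70.52 TPM in WT B against 53.9 to 54.77 TPM in the other WT libraries. Lef1KI C was the low library for Slc34a2, with 0.37 TPM against 0.67 to 0.77 TPM in the other Lef1KI libraries, and for Slc5a8, with 0.61 TPM against 1.01 to 1.17 TPM. Lef1KI A was the low library for Slc35a4, with 47.55 TPM against 78.52 to 93.7 TPM in the others. WT A was the low library for Slc22a23, with 8.45 TPM against 20.11 to 23.9 TPM in the other WT libraries, and for Slc6a6, with 12.27 TPM against 24.22 to 27.71 TPM.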

How the results depend on the processing

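The labels carry replicate numbers and the deposited columns carry letters, and nothing ties one to the other or says that a letter marks a pair. Deviations from the group means were correlated over 13336 genes. For the 4 letters A, B, D and E that the groups share, the correlations were −0.259, 0.0199, 0.258 and −0.148. Of these letters, only for D did the libraries correlate best with their own letter, and the value for A was the lowest of all pairs. No WT column carries the letter C, so a replicate block on the letter sets Lef1KI C aside. The differences are then those of the fit without Lef1KI C, and only the p-values can differ. With this block, added after seeing the data, 11 carriers rose, 1 fell and their median difference was 0.09. Of the linked genes 3 rose and 0 fell (Car2 −1.10, limma adjusted p 0.0561). Of the 18 called carriers 12 were called in the fit with this block. As deposited 17 carriers rose and 1 fell. Median centring gave 10 rises and 6 falls, and trimmed-mean scaling 10 and 5. The other settings (a pseudocount of 0.1 TPM, a mean of at least 1 TPM, no intensity trend, and a mean of at least 3 SD in both groups, the last added after seeing the data) gave 14 to 17 rises and 1 fall. Leaving out 1 library gave 11 to 23 rises, with 11 without Lef1KI C and 11 without WT E, and 0 to 7 falls. The falls numbered 3 without Lef1KI A, 2 without Lef1KI E, 7 without WT A, 2 without WT B and 0 without WT E. The median difference of the carriers was 0.10 as deposited and 0.03 to 0.13 with 1 library left out. Linked genes that rose numbered 6, and 4 to 10 with 1 library left out, with 10 without Lef1KI A. Linked genes that fell numbered 1, against 2 under median centring, 2 under trimmed-mean scaling, 2 with a mean of at least 1 TPM and 1 to 3 with 1 library left out (3 without Lef1KI A and 2 without Lef1KI E). The cause of these shifts was not tested.

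Of the 18 called carriers 9 were called under every alternative that gave them a value, but Slc6a15 had none under either filter and Slco1a4 none with a mean of at least 3 SD in both groups, so 7 were called with a value in each. Of the 18, 10 were called in all 9 fits that left out a library, and 0 changed sign under the pseudocount or the block. Signs were also kept under the scalings, the filters and no intensity trend, which is no test of them. The filters and no intensity trend leave a gene's difference as it was. Each scaling shifts every gene by the same amount, smaller than any difference of the 18. Slc25a12 lost its call under both scalings, both filters and no intensity trend, and Slc39a7 under both scalings and no intensity trend. Over 58 genes and 16 alternatives, 811 of 921 values kept direction and side of the threshold, 73 lost the call, 15 gained one and 22 changed sign, all 22 in genes that were not called. The 811 include genes not called that stayed so, and values under the filters and no intensity trend, where direction could not change. Under median centring and trimmed-mean scaling the difference was −0.13 and −0.12 for Slc25a5, −0.14 and −0.13 for Slc35b1, −0.13 and −0.12 for Slc3a2, and −0.062 and −0.051 for Slc44a1. With 1 library left out, sign changes gave Slc12a4 0.0068 (without Lef1KI D) and 0.060 (without WT B), Slc20a1 0.012 (without Lef1KI D), Slc25a3 0.020 (without Lef1KI A), and Slc48a1 0.014 (without Lef1KI D) and 0.0038 (without WT E). They also gave Slc25a5 −0.074 (without Lef1KI E) and −0.029 (without WT E), Slc35b1 −0.046, −0.017 and −0.037 (without Lef1KI A, Lef1KI B and WT A), and Slc3a2 −0.023, −0.00899 and −0.074 (without Lef1KI A, Lef1KI B and WT D). Over all 9 such fits the differences ran from −0.436 to 0.012 for Slc20a1, with the lowest −0.113 for Slc25a3 and the highest 0.112 for Slc25a5, 0.072 for Slc35b1 and 0.112 for Slc3a2. Depth in reads is unknown, and the median half-width of the 95% interval of a carrier's difference was 0.413.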
